A study of Mus musculus with 21 samples.

Results

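The 39 genes described here act in mitosis: they start it, build and check the spindle, hold and compact the chromosomes, or divide the cell. They were taken from the 18193 mouse genes that had a probe set with a single gene symbol on an Affymetrix mouse expression array. Where a gene had several, the brightest on average over all 21 arrays stood for it. The arrays came from 7 groups of 3. Androgenetic haploid embryonic stem (ahES) cells carry 1 chromosome set, of paternal origin, and were represented by the lines AH129-5, AH129-N1 and AH129-NC1 of 129 Sv background, sorted as haploid cells in G0/G1. They were set against the diploid embryonic stem (ES) lines CS1-1 and R1, also 129 Sv, mouse embryonic fibroblasts (MEF) of CD1 background, and round sperm of 129 Sv background, the haploid germ cells made by meiosis, which were sorted in G0/G1 too. No sort is given in the labels for diploid ES cells or MEF. The ES cells were all grown in N2B27 with 2i inhibitors and LIF, whereas MEF grew in DMEM plus serum and round sperm came freshly from testis; the age of the animals is not given. The labels call the 3 arrays of a group biological replicates without saying whether they came from separate cultures or animals, so the p-values measure the spread between these arrays. Haploid and diploid ES cells were represented by only 3 and 2 lines.

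Entry into mitosis is driven by the kinase Cdk1 bound to cyclins of the A and B type. The Aurora and Polo kinases then shape the spindle, kinetochores tie chromosomes to microtubules, and a checkpoint restrains the anaphase promoting complex (APC/C), the ubiquitin ligase that starts anaphase, until every chromosome is attached. Most of these genes are transcribed late in the cell cycle and their messages are low in G1, so that they are widely used as a signature of dividing cells; in the testis many serve the meiotic divisions as well. In a bulk sample, fewer cells of a type and less RNA per cell cannot be told apart.

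All values below are log2(signal + 9.70), where signal is the deposited MAS5 value returned from its log2 scale and 9.70 signal units is a small offset that damps noise near background. Differences are on this scale, with the standard error (SE) of the limma fit, and errors of means are standard deviations (SD) over arrays. A gene was called higher or lower where its p, adjusted by Benjamini and Hochberg over all genes tested, was under 0.05 and it had moved 2-fold or more. The number of arrays limits how precise the values are. All 39 genes lay above the 40th percentile of the array on each of the 15 ES and 3 MEF arrays. Of the 39, 38 did so on each round sperm array, and 37 on all 3 of these. All 39 entered every comparison. All 10 pluripotency markers were above that percentile on every ES array and all 20 fibroblast markers on every MEF array. All 16 round spermatid markers were above it on every round sperm array. The percentile alone did not set the groups apart. Of the fibroblast markers, 19 passed it on every ahES array, 15 on every diploid ES array and 10 on every round sperm array. Of the pluripotency markers, 6 passed it on every round sperm array. The summed signal of the pluripotency markers was 100323 to 116082 signal units in ahES and 120040 to 123011 in diploid ES. It was 237.7 to 304.8 in MEF and 1264 to 1385 in round sperm. Round sperm arrays also held all 19 markers of meiotic spermatocytes. The Gapdh 3' minus 5' control difference, a sign of RNA integrity, was -0.24 ± 0.08 in ahES (SD, n = 9), -0.24 ± 0.04 in diploid ES (n = 6), -0.21 ± 0.04 in MEF (n = 3) and 0.55 ± 0.17 in round sperm (n = 3). The same difference for Actb was 0.55 ± 0.07 in ahES, 0.57 ± 0.05 in diploid ES, 0.34 ± 0.06 in MEF and 0.74 ± 0.25 in round sperm. For Actb all MEF arrays (0.28 to 0.39) lay below all ES arrays (0.45 to 0.63), and round sperm arrays (0.50 to 1.003) overlapped the ES arrays. Its part in the comparisons with MEF was not tested.

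Over the 7 groups, most mitotic genes were higher in each of the 5 ES lines than in MEF, and they were split in round sperm. Of the 39 genes, 29 had their highest group mean in an ES line, 9 in round sperm and 1, the Cdk1-activating phosphatase Cdc25b, in MEF. As 5 of the 7 groups are ES lines, a highest mean in an ES line is likely by number alone. The lowest group mean was that of round sperm in 22 genes, of MEF in 16 and of AH129-5 in 1, the kinetochore gene Nuf2. The median range of the 5 ES line means was 0.44, and 4 genes had a range of at least 1: Ckap2, Aurkb, Ncapd2 and Kif4. The shares over all genes were not counted for these orders and ranges, so they only describe the 39 genes.

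**Figure D1:**
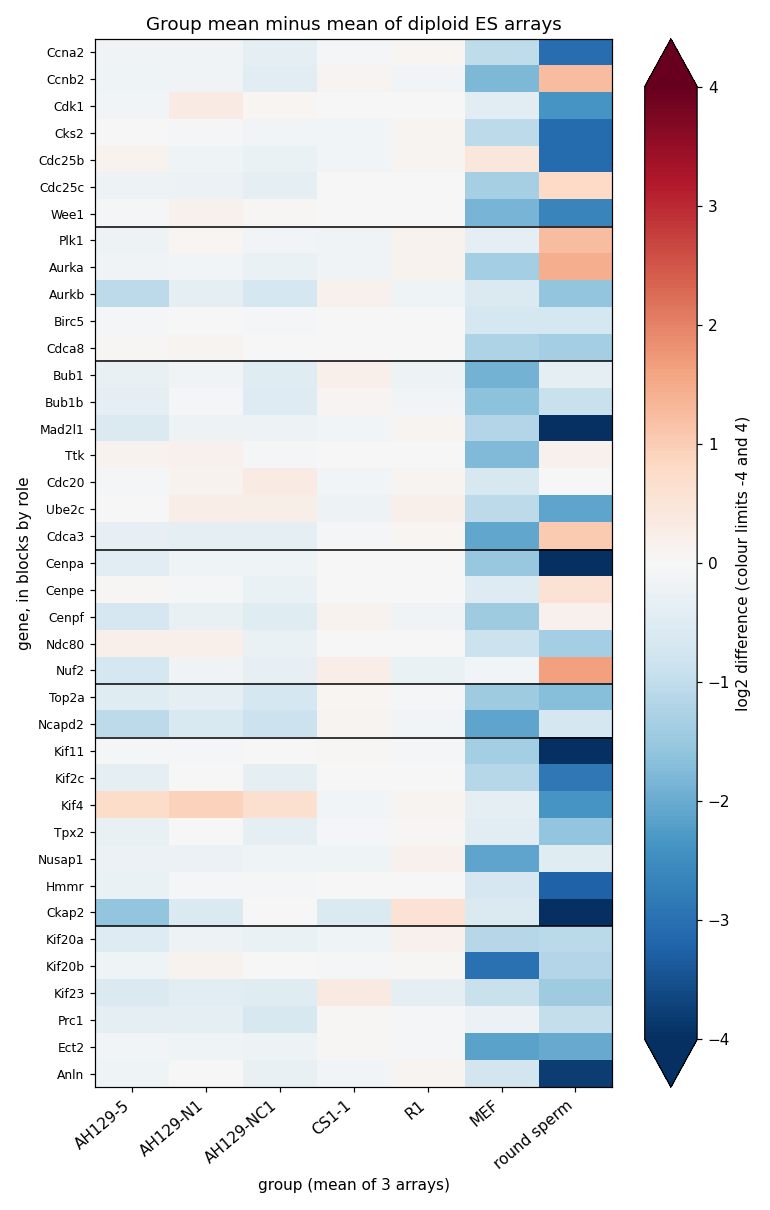
Group means of the 39 genes (rows, in blocks by role) minus the mean of the 6 diploid ES arrays, in log2 units, for 7 groups of 3 arrays; colours saturate at -4 and 4. The 5 ES lines are pale in most rows, MEF is blue in most rows, and round sperm is dark blue for genes such as Cenpa and Mad2l1 and red for genes such as Nuf2 and Aurka.

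The promoters of these genes were searched for words that are known from mitotic promoters: the CHR (cell cycle genes homology region; letters TTTGAA, or TTCGAA in a second form), through which the DREAM and MYBL2 complexes act, and the CCAAT box, the word of the factor NF-Y. Below are 5 of the promoters with most such words, chosen by that number with ties broken by gene name. Expression played no part in the choice. All 5 genes were higher in both kinds of ES cell than in MEF at an adjusted p under 0.05. Over all 39 genes, 33 were so in ahES and 37 in diploid ES. The 5 genes take in a cyclin, its kinase, an APC/C enzyme, a topoisomerase and a spindle protein. Each run holds the 250 bases before the annotated start, written 5′ to 3′ along the gene, from RefSeq on GRCm38.p6; capitals mark every match to the 3 words on either strand, so that CCAAT on the other strand reads ATTGG and TTTGAA reads TTCAAA.
Top2a (chr11:99024190-99024439, minus strand): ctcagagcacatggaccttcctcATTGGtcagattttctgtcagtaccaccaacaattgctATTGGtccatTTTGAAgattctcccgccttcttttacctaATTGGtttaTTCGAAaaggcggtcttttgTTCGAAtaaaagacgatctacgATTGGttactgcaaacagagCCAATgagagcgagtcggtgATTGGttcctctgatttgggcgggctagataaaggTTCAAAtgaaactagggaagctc
Ube2c (chr2:164769679-164769928, plus strand): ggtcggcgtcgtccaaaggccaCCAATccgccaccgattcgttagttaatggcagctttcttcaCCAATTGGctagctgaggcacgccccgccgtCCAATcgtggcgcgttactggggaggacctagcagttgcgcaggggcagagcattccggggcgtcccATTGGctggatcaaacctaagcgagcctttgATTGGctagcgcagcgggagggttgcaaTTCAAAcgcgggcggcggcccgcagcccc
Cdk1 (chr10:69352913-69353162, minus strand): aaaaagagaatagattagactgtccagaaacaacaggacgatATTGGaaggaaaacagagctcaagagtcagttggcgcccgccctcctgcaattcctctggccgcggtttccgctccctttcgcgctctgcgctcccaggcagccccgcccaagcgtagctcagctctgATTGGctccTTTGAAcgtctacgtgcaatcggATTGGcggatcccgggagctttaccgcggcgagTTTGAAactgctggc
Hmmr (chr11:40733438-40733687, minus strand): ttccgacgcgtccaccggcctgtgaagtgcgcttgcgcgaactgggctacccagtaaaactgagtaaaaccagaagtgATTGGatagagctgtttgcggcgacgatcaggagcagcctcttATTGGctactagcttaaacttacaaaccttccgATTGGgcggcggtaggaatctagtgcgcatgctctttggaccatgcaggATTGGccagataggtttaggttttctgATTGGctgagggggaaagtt
Ccnb2 (chr9:70421555-70421804, minus strand): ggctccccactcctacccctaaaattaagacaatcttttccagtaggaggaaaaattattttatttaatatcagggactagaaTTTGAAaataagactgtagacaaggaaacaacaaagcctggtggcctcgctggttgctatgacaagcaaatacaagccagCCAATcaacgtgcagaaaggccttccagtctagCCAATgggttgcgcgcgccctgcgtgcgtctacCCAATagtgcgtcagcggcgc

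Top2a held 10 matches, of which 6 were CCAAT, 2 TTTGAA and 2 TTCGAA. Ube2c held 7, with 1 pair of CCAAT matches overlapping on opposite strands, and Cdk1 and Hmmr held 5 each, all 5 of Hmmr being CCAAT. Among these promoters, the match nearest to a start was the TTTGAA of Cdk1, 15 to 10 bases before it. Promoters of 33 of the 39 genes, 35 in all, were matched by symbol. CCAAT was found in 77.14% of them, against 34.73% of the 18109 promoters of genes on the array and 33.85% of all 32851 promoters of the table. The word TTTGAA was found in 34.29%, against 11.93% and 15.99%, and TTCGAA in 5.714%, against 1.607% and 1.336%. A match is only a run of letters in this window and was not tested for binding; the 18109 and 32851 include the promoters of the mitotic genes.

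Haploid and diploid ES cells were compared over the 15 ES arrays, the line being a random block. No mitotic gene was called: 0 of 39 were higher and 0 lower by 2-fold, where 3% of the 12891 genes tested were called higher and 1.35% lower, 4.35% in all (561 genes). The genes nevertheless leaned to lower values in ahES cells. Of the 39 differences, 31 were negative, and their median was -0.21, against -0.03 over all genes tested. At an adjusted p under 0.05 and any fold, 7 genes were lower and 1 was higher, where 5.16% and 6.52% of all genes were. At an unadjusted p under 0.05, 15 genes (38.5%) were lower and 1 (2.56%) higher, where 12.5% of all genes were lower and 11.5% higher. In 7 genes (17.9%) every ahES array lay below every diploid ES array, against 6.83% of all genes, and in 1 gene (2.56%) every ahES array lay above, against 7.21%.

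**Figure D2:**
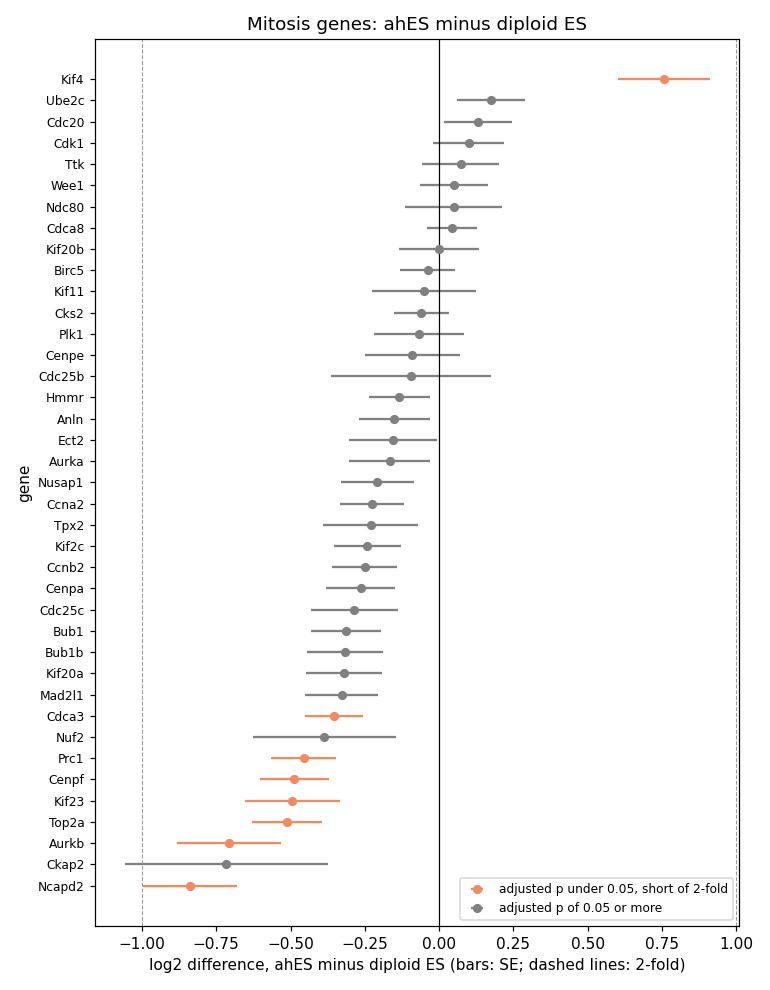
Differences of the 39 genes, ahES minus diploid ES, in log2 units with SE from limma over 15 ES arrays; dashed lines mark 2-fold. No point lies beyond 2-fold, 31 of 39 lie below 0, and 8 are coloured for an adjusted p under 0.05, of which Kif4 alone is positive.

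By the probe sets used, chromosome structure showed the largest difference. Ncapd2, a subunit of the condensin I complex that compacts mitotic chromosomes, read 10.11, 10.42 and 10.84 in ahES (lowest, median and highest of 9 arrays) and 11.10, 11.24 and 11.47 in diploid ES (of 6 arrays), a difference of -0.84 ± 0.16 (adjusted p = 0.00101). Top2a, the topoisomerase that untangles sister chromatids, read 13.01, 13.26 and 13.51 in ahES and 13.60, 13.80 and 13.86 in diploid ES (-0.51 ± 0.12, adjusted p = 0.00513). In both genes the 2 sides did not overlap by the probe sets used. The other probe set of Ncapd2, above the 40th percentile on all 15 ES arrays, gave only -0.27. A second probe set of Top2a, also above it on all 15, gave -0.89. Of 17 other genes of condensin and cohesin, 1 (5.88%) was called higher and 0 lower, where 3% and 1.35% of all genes were. It was Stag2, a cohesin subunit, with means of 11.40 in ahES and 10.33 in diploid ES (1.07 ± 0.14). X-linked genes as a set were also higher in ahES (median 0.90 over 454 genes), and the part of the chromosome in the Stag2 values was not tested.

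Among the mitotic kinases, only Aurkb passed an adjusted p of 0.05. This kinase of the chromosomal passenger complex, which corrects wrong attachments, read 9.10, 9.50 and 9.98 in ahES and 10.001, 10.19 and 10.46 in diploid ES without overlap (-0.71 ± 0.17, adjusted p = 0.0095). Both probe sets of Aurkb carry suffixes for possible cross-hybridisation, and the other one gave -0.56. Its partners Birc5 (survivin) and Cdca8 (borealin) differed by -0.04 ± 0.09 and 0.04 ± 0.08, Aurka, the kinase of the spindle poles, by -0.17 ± 0.14 and Plk1 by -0.07 ± 0.15, none past the threshold.

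At the kinetochore, Cenpf, a large protein of its outer layer, was lower without overlap, with 10.99, 11.15 and 11.41 in ahES and 11.51, 11.67 and 11.88 in diploid ES (-0.49 ± 0.12, adjusted p = 0.00698). Nuf2, part of the Ndc80 complex that holds microtubules, differed by -0.39 ± 0.24 with overlapping arrays (adjusted p = 0.359), and Ndc80 itself by 0.05 ± 0.16. The histone variant Cenpa, which marks the centromere, and the kinetochore motor Cenpe differed by -0.26 ± 0.12 and -0.09 ± 0.16. Of the other genes of these structures, 0 of 18 centromere genes and 0 of 19 genes of the checkpoint and outer kinetochore were called. At an unadjusted p under 0.05, 5 (27.8%) and 4 (21.1%) were lower and 1 and 2 higher, where 12.5% of all genes were lower and 11.5% higher.

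In the spindle checkpoint and the APC/C, the differences ran from -0.35 to 0.17 with a median of -0.31. Cdca3, which helps to remove the mitosis inhibitor Wee1, was the 1 gene of the 7 with an adjusted p under 0.05: its arrays lay at 12.21, 12.28 and 12.33 in ahES and 12.49, 12.68 and 12.73 in diploid ES (-0.35 ± 0.10, adjusted p = 0.0203). With the mean over its 3 probe sets, of which the other 2 were above the percentile on 3 and 10 of 15 ES arrays, Cdca3 was at 0.031 (adjusted p = 0.975). The checkpoint genes Mad2l1, Bub1b and Bub1 differed by -0.33 ± 0.12, -0.32 ± 0.13 and -0.31 ± 0.12, with adjusted p of 0.0918, 0.121 and 0.0915. Cdc20, the activator of the APC/C, read 13.47, 13.80 and 13.95 in ahES and 13.47, 13.56 and 13.74 in diploid ES, and Ube2c, its ubiquitin-conjugating enzyme, read 13.50, 13.75 and 13.90 in ahES and 13.29, 13.59 and 13.79 in diploid ES. Both were among the 8 positive differences, at 0.13 ± 0.11 and 0.17 ± 0.12, with overlapping arrays. None of 19 other APC/C and separase genes was called, while 6 (31.6%) were lower and 0 higher at an unadjusted p under 0.05, where 12.5% and 11.5% of all genes were.

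The differences of the 7 cyclins and entry kinases ran from -0.29 to 0.10, and none had an adjusted p under 0.05. Cdk1 read 12.61, 12.93 and 13.19 in ahES and 12.77, 12.81 and 12.94 in diploid ES (0.10 ± 0.12). Cyclins Ccna2 and Ccnb2 differed by -0.23 ± 0.11 and -0.25 ± 0.11, and Cdc25c, a phosphatase that activates Cdk1, by -0.29 ± 0.15 with all ahES arrays below the diploid ones (adjusted p = 0.246). The probe set with the highest mean in ES cells, that of the Cdk-binding subunit Cks2, ran from 14.10 to 14.28 in ahES and from 14.08 to 14.41 in diploid ES. The lowest, that of Cdc25b, ran from 7.66 to 8.50 in ahES and from 7.92 to 8.50 in diploid ES. In both genes the sides overlapped.

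Of the proteins of the central spindle and of cytokinesis, Prc1 and Kif23 were lower. Prc1, which bundles antiparallel microtubules, read 10.79, 11.12 and 11.17 in ahES and 11.37, 11.50 and 11.61 in diploid ES without overlap (-0.46 ± 0.11, adjusted p = 0.0081). Kif23, the motor of centralspindlin, differed by -0.49 ± 0.16 (adjusted p = 0.0471), but the 2 diploid lines were far apart: it read 11.58, 11.52 and 11.58 in CS1-1 and 10.85, 10.83 and 10.91 in R1, and R1 overlapped with the ahES arrays, whose range was 10.49 to 10.85. Kif20a, Kif20b, the cytokinesis factor Ect2 and the ring scaffold Anln differed by -0.32 ± 0.13, -0.001 ± 0.13, -0.15 ± 0.15 and -0.15 ± 0.12, none past the threshold.

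The spindle motors and microtubule proteins held the only gene that was higher. Kif4, a chromokinesin encoded on the X chromosome, read 10.60, 10.46 and 10.38 in AH129-5, 10.60, 10.72 and 10.70 in AH129-N1 and 10.50, 10.43 and 10.27 in AH129-NC1, against 9.56, 9.58 and 9.77 in CS1-1 and 10.01, 9.83 and 9.80 in R1. All 9 ahES arrays were above all 6 diploid ES arrays (0.76 ± 0.15, 1.69-fold, adjusted p = 0.00202). The 454 X-linked genes tested had a median difference of 0.90 in the same comparison, against -0.04 over the other genes, and the part of the X chromosome in the Kif4 values was not tested. The remaining members of the group, Kif11, Kif2c, Tpx2, Nusap1 and Hmmr, differed by -0.24 to -0.05 by the probe sets used, with adjusted p of 0.188 or more. Kif11 had further probe sets above the 40th percentile on all 15 ES arrays, which gave -0.78 and -0.10.

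Ckap2, a microtubule protein of the spindle, varied most among the ES lines. It read 10.66, 10.49 and 10.57 in AH129-5, 11.64, 11.52 and 11.49 in AH129-N1 and 12.26, 12.16 and 12.01 in AH129-NC1, against 11.53, 11.62 and 11.54 in CS1-1 and 12.71, 12.65 and 12.79 in R1. The line means spanned 2.15 with a within-line SD of 0.09, and the order of the lines crossed ploidy, with CS1-1 level with AH129-N1 and R1 above AH129-NC1. The difference between ahES and diploid ES, -0.72 ± 0.34, had an adjusted p of 0.216. Ckap2 lies on chromosome 8. Relative to the mean of the 15 ES arrays, the 682 genes of that chromosome had a median of 0.31 in R1, against 0.004 for the other genes of R1; in AH129-5 and AH129-NC1, the ahES lines at the ends of the Ckap2 range, it was -0.05 and -0.14, against 0.03 and -0.03 for their other genes. The part of chromosome 8 in the Ckap2 values was not tested.

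**Figure D3:**
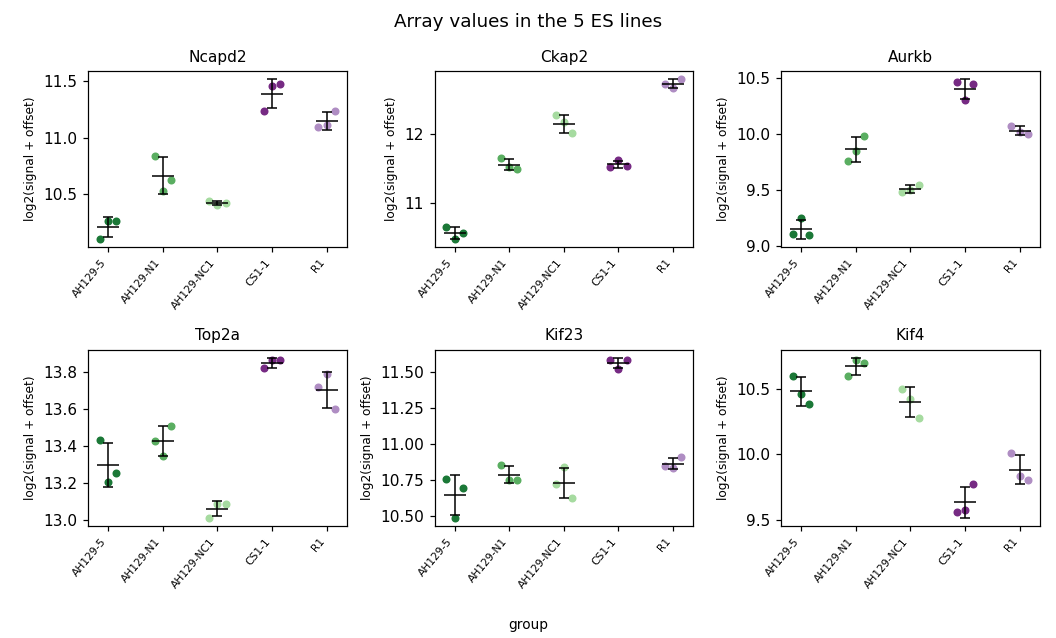
Array values, log2(signal + offset), of 6 genes in the 5 ES lines; points are arrays and bars the mean ± SD of 3. Ncapd2, Aurkb and Top2a are lower and Kif4 is higher in all 9 ahES arrays, CS1-1 stands apart in Kif23, and Ckap2 differs line by line without following ploidy.

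Taken line by line, the shift was small and uneven. The median over the 39 genes was negative for all 6 ways of setting an ahES line against a diploid line, from -0.05 (AH129-N1 minus CS1-1) to -0.28 (AH129-NC1 minus R1), where the median over all genes ran from -0.06 to 0.01. Between ahES lines it was -0.19 for AH129-5 minus AH129-N1, 0.018 for AH129-5 minus AH129-NC1 and 0.15 for AH129-N1 minus AH129-NC1. All pairs of lines are given as a description. These pairs share arrays. The calls depended on how lines were treated. The fit assumed 1 within-line correlation for all genes, 0.687, which favours calls in genes whose lines differ more than most. With 1 mean per line in place of the arrays, 0 mitotic genes were higher and 0 lower at an adjusted p under 0.05, while without the line block 4 were higher and 24 lower. Leaving out a line also moved the counts: without CS1-1, 3 genes were lower, without R1, 2 were higher, and without AH129-NC1, Ckap2 was called lower (-1.08, adjusted p = 0.0443). Over all genes, 561 were called with all lines and 1098 without R1. Ploidy and the G0/G1 sort, given for ahES cells and not for diploid ES cells, cannot be told apart in this comparison. Of 20 fibroblast markers, 2 (10%) were called higher in ahES (Lum, 1.47 ± 0.44, and Dcn, 2.08 ± 0.61) and 0 lower, where 3% and 1.35% of all genes were. The median difference of these markers was 0.75, and 15 of the 20 were positive. Their part in the mitotic genes was not tested. Of 35 S phase genes, 0 were called, where 4.35% of all genes were called in either direction; at an unadjusted p under 0.05, 13 (37.1%) were lower and 0 higher, where 12.5% and 11.5% of all genes were.

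The 2 diploid lines were compared directly. Ckap2 was the only mitotic gene called in CS1-1 minus R1, lower by 2-fold (-1.16 ± 0.07, adjusted p = 1.97e-11), so that 0 of 39 (0%) were called higher and 1 (2.56%) lower, where 4.17% and 5.69% of 12100 genes were. At an adjusted p under 0.05 and any fold, 9 were higher and 13 lower, where 25.9% and 23.8% of all genes were; with median-centred arrays 9 were higher and 6 lower. The median was -0.03, against 0.02 over all genes. Kif23 had the largest positive difference (0.70 ± 0.07). Nuf2 followed, with 9.76, 9.61 and 9.58 in CS1-1 and 8.86, 9.03 and 9.40 in R1 (0.55 ± 0.12), and its 2 sides did not overlap. The checkpoint kinase Bub1 read 12.85, 12.91 and 12.90 in CS1-1 and 12.47, 12.46 and 12.46 in R1, and Aurkb read 10.46, 10.30 and 10.44 in CS1-1 and 10.07, 10.01 and 10.001 in R1. Both were higher in CS1-1, by 0.43 ± 0.05 and 0.37 ± 0.08, and with the mean over its probe sets Bub1 passed 2-fold (1.44). On the other side, Ube2c read 13.29, 13.32 and 13.44 in CS1-1 and 13.79, 13.76 and 13.75 in R1 (-0.42 ± 0.05), and Kif20a, which carries the passenger complex to the central spindle, read 11.87, 11.81 and 11.91 in CS1-1 and 12.19, 12.21 and 12.27 in R1 (-0.36 ± 0.06). Nusap1, a protein that bundles spindle microtubules, read 11.96, 12.08 and 12.08 in CS1-1 and 12.36, 12.49 and 12.35 in R1 (-0.36 ± 0.06). In these 3 genes every CS1-1 array lay below every R1 array. Of the 39 genes, 12 lay below in this way and 10 above, and the share over all genes was not counted for this pair. Among other mitotic genes, Haus4 of the augmin complex and Bora, an activator of Aurka, were called higher in CS1-1 (1.27 ± 0.08 and 1.17 ± 0.09). Fibroblast markers moved with this pair: 17 of 20 were lower in CS1-1 by 2-fold, and their part in the mitotic genes was not tested.

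Against MEF, the mitotic genes were higher in ahES cells as a group. Of the 39, 17 (43.6%) were called higher, 0 (0%) lower and 22 were not called, where 21.1% of 13220 genes tested were called higher and 21% lower. The median difference was 0.91, against 0.08 over all genes, and 33 genes were higher and 3 lower at an adjusted p under 0.05 and any fold, where 40.8% and 36.1% of all genes were. In 31 genes every ahES array lay above every MEF array (79.5%, against 32.8% of all genes) and in 2 below (5.13%, against 30.5%). Diploid ES cells gave 23 of 39 (59%) higher and 0 lower with a median of 1.14, where 22.6% of 13016 genes were called higher and 22.1% lower. There, 37 were higher and 0 lower at an adjusted p under 0.05 and any fold (42.2% and 35.9% of all genes), and the diploid arrays lay above all MEF arrays in 36 genes (92.3%, against 36.8% of all genes) and below them in 1 (2.56%, against 33.4%). The 2 comparisons share the MEF arrays. In the fits against MEF and round sperm the arrays were the units, so the SE and p leave out the spread between ES lines. MEF differ from the ES cells in strain and medium as well as cell type. The ahES cells were also haploid and sorted in G0/G1, whereas no sort is given for MEF. These differences cannot be told apart. The summed signal of the 20 fibroblast markers was 43305 to 54031 signal units in ahES, 23783 to 59124 in diploid ES and 315858 to 325330 in MEF.

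Kif20b, a kinesin of the central spindle, had the largest difference in both. It read 11.61, 11.95 and 12.04 in ahES (lowest, median and highest), 11.77, 11.85 and 11.96 in diploid ES and 8.78, 8.71 and 9.16 in MEF, and was 7.84-fold higher in ahES (2.97 ± 0.09) and 7.84-fold higher in diploid ES (2.97 ± 0.09). Ect2, which acts at the cleavage furrow, read 11.39, 11.69 and 11.78 in ahES, 11.68, 11.79 and 11.98 in diploid ES and 9.72, 9.75 and 9.56 in MEF, and was higher by 1.99 ± 0.16 in ahES and by 2.14 ± 0.17 in diploid ES. In both genes all ES arrays stood above MEF. The other genes of the group were not uniform: Kif20a was short of 2-fold in ahES (0.82 ± 0.07) and called in diploid ES (1.14 ± 0.07), and Prc1 ran the other way in ahES.

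Among the entry genes, Wee1, the kinase that holds Cdk1 inactive, was higher, with 11.08, 11.17 and 11.40 in ahES and 9.45, 9.14 and 9.29 in MEF (1.91 ± 0.07). Ccnb2 was higher by 1.54 ± 0.05 and Cdc25c by 1.04 ± 0.08, so 3 of the 7 entry genes were called in ahES, against 5 in diploid ES, where Ccna2 (1.02 ± 0.07) and Cks2 (1.05 ± 0.06) also passed 2-fold. Cdk1 was short of 2-fold in both (0.56 ± 0.06 and 0.46 ± 0.06). Cdc25b was the exception, with 7.66, 8.11 and 8.50 in ahES, 7.92, 8.24 and 8.50 in diploid ES and 8.64, 8.89 and 8.51 in MEF (-0.56 ± 0.20 in ahES, adjusted p = 0.0169, and -0.46 ± 0.21 in diploid ES, adjusted p = 0.0554). It was below MEF on every ES array.

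The spindle checkpoint and APC/C genes had the highest median of a role with more than 2 genes, 1.32 in ahES and 1.64 in diploid ES, and 5 and 6 of 7 were called. Ttk, the kinase at the top of the checkpoint, Cdca3 and Bub1 were higher in ahES by 1.83 ± 0.07, 1.72 ± 0.05 and 1.58 ± 0.07. Bub1b and Ube2c were higher by 1.32 ± 0.06 and 1.21 ± 0.05, while Mad2l1 passed 2-fold in diploid ES (1.19 ± 0.11) and had 0.86 ± 0.10 in ahES. Of the 7 spindle motors and microtubule proteins, Nusap1 had the largest difference: its arrays gave 11.88, 12.02 and 12.15 in ahES, 11.96, 12.22 and 12.49 in diploid ES and 9.98, 10.12 and 10.26 in MEF (1.89 ± 0.07 in ahES and 2.10 ± 0.07 in diploid ES). Ncapd2 read 11.10, 11.24 and 11.47 in diploid ES and 9.20, 9.17 and 9.14 in MEF (2.10 ± 0.08), and its difference in ahES was 1.26 ± 0.07. Cenpa was called higher in ahES (1.26 ± 0.16), but with the mean over its 3 probe sets, of which the other 2 were above the percentile on only 3 and 4 of 15 ES arrays, the difference was -0.58.

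The smallest differences were scattered over the roles. Nuf2 read 8.52, 9.11 and 9.36 in ahES, 8.86, 9.49 and 9.76 in diploid ES and 9.50, 9.21 and 9.11 in MEF (-0.29 ± 0.12 in ahES, adjusted p = 0.0301, and 0.10 ± 0.12 in diploid ES, adjusted p = 0.479). Its line means were 8.66 in AH129-5, 9.24 in AH129-N1 and 9.06 in AH129-NC1, against 9.28 in MEF. Prc1 read 10.79, 11.12 and 11.17 in ahES, 11.37, 11.50 and 11.61 in diploid ES and 11.25, 11.20 and 11.30 in MEF, which put it below MEF in ahES (-0.21 ± 0.05) and above it in diploid ES (0.25 ± 0.05). The Prc1 line means were 11.14 in AH129-5, 11.13 in AH129-N1 and 10.85 in AH129-NC1, against 11.25 in MEF. Aurkb read 9.10, 9.50 and 9.98 in ahES, 10.001, 10.19 and 10.46 in diploid ES and 9.63, 9.64 and 9.69 in MEF (-0.14 ± 0.07 in ahES, adjusted p = 0.0533). Its second probe set gave 0.42 for ahES minus MEF, of the opposite sign. Plk1, the Polo kinase, read 10.68, 10.82 and 11.23 in ahES, 10.78, 10.97 and 11.15 in diploid ES and 10.61, 10.55 and 10.68 in MEF, and was short of 2-fold in both ES kinds (0.29 ± 0.07 in ahES and 0.35 ± 0.07 in diploid ES).

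Other genes of these pathways are counted in ahES minus MEF, where 21.1% of all genes were called higher and 21% lower. Of 18 centromere genes, 10 (55.6%) were called higher and 1 lower, and of 19 checkpoint and outer kinetochore genes 8 (42.1%) were higher and 0 lower. Of 17 condensin and cohesin genes 5 (29.4%) were higher and 0 lower, of 25 motors and microtubule factors 8 (32%) and 0, and of 14 centrosome genes 4 (28.6%) and 0. Of 19 APC/C and separase genes 5 (26.3%) were higher and 2 lower, and of 17 entry and exit kinases and phosphatases 5 (29.4%) and 2. Of 15 other genes of G2 and M, 4 (26.7%) were higher and 0 lower. The Ndc80 complex subunit Spc24 and the centromere protein Cenpm were higher by 2.66 ± 0.08 and 2.83 ± 0.11. Among 17 regulators that act through the CHR and CCAAT words, 6 (35.3%) were higher and 0 lower, with Mybl2, the activator of late cell cycle genes, at 11.55 in ahES and 7.75 in MEF (3.80 ± 0.07). Of 35 S phase genes, 24 (68.6%) were higher and 0 lower. Of 10 cytokinesis genes, 2 were higher and 2 lower, 20% each and near the shares of all genes; Mylk, the myosin light chain kinase of contractile cells, was lower by 4.19 ± 0.16.

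Round sperm, which have left the mitotic cycle, showed a wide split of the genes. In ahES minus round sperm, 20 of 39 (51.3%) were called higher, 6 (15.4%) lower and 13 were not called, where 40.8% of 14765 genes tested were called higher and 32.2% lower. Adjusted p was 1.35e-09 or less in each of the 26. The differences ran from -2.02 to 6.75 with a median of 1.18, against 0.33 over all genes, a shift that was 0.19 with median-centred arrays and 0.10 after quantile normalization. Called counts were 20 and 6 with median-centred arrays and 19 and 6 after quantile normalization. They were 19 and 5 with probe sets averaged per gene, and 19 and 7 of 38 without probe sets whose suffix marks possible cross-hybridisation. At an adjusted p under 0.05 and any fold, 27 were higher and 8 lower, where 49.4% and 39.9% of all genes were. All ahES arrays lay above all round sperm arrays in 26 genes (66.7%, against 43.4% of all genes) and below them in 8 (20.5%, against 35%). In the values that follow, the lowest, median and highest of 9 ahES arrays stand before the 3 round sperm arrays in replicate order. Beside all of them stand the markers of other testis cells. Of the 19 spermatocyte markers, 8 lay above the 40th percentile on every ahES array, with a summed signal of 7581 to 9577 signal units, and all 19 on every round sperm array, with 75061 to 79096. Of 12 spermatogonium markers, 9 did so in ahES (17733 to 20200 signal units) and 10 in round sperm (1522 to 2074). Of 10 Sertoli cell markers, 4 did so in ahES (11071 to 15275 signal units) and 5 in round sperm (797.2 to 908.6), and of 5 Leydig cell markers 2 in ahES (220.0 to 406.6) and 1 in round sperm (238.1 to 297.2). The part of spermatocytes and of the higher Gapdh 3' minus 5' difference in the mitotic genes was not tested.

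**Figure D4:**
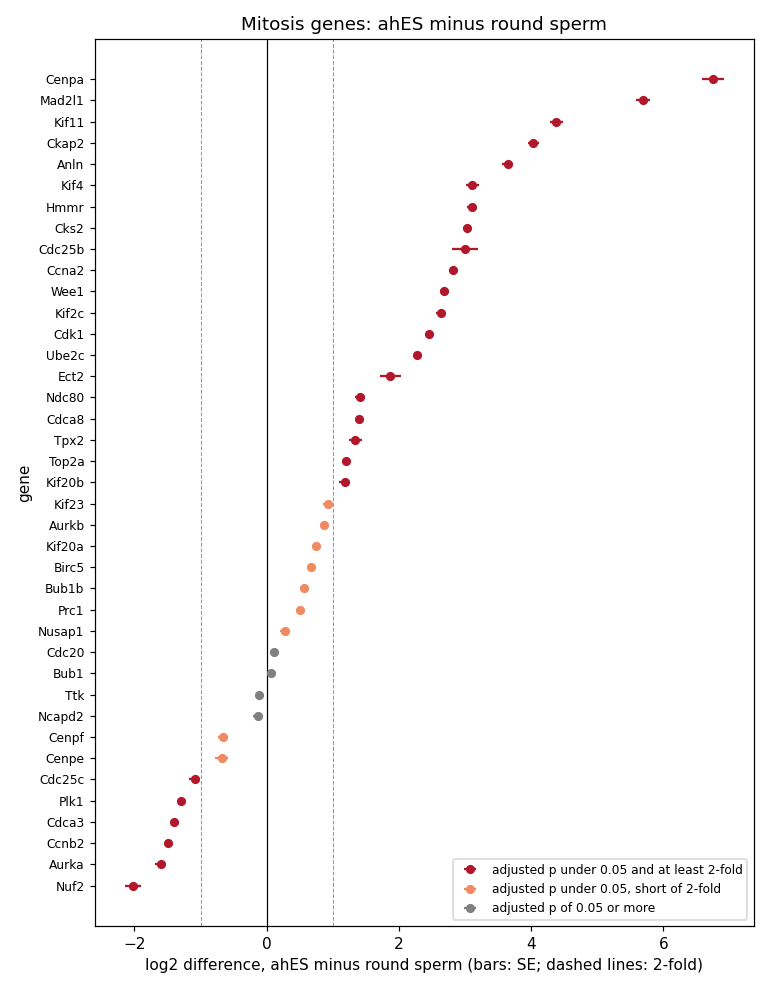
Differences of the 39 genes, ahES minus round sperm, in log2 units with SE from limma over 21 arrays; dashed lines mark 2-fold. Genes run from Nuf2 at -2.02 to Cenpa at 6.75 (near background on 1 round sperm array), with 6 called lower and 20 called higher.

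The cyclins and entry kinases went both ways, with 5 called higher and 2 lower by the probe sets used; 1 of the 5, Wee1, turns with its other probe set, which by sign alone, untested, would give 4 and 3. Ccnb2, the B-type cyclin, read 12.03, 12.36 and 12.49 in ahES and 13.73, 13.94 and 13.69 in round sperm and was 2.81-fold lower in ahES (-1.49 ± 0.05). Cdc25c read 9.23, 9.33 and 9.53 in ahES and 10.33, 10.48 and 10.53 in round sperm and was lower by 1.09 ± 0.08 in ahES. These messages were thus higher in round sperm than in any ES line, without overlap. Their partners in the entry switch were higher in ahES: Cdk1 read 12.61, 12.93 and 13.19 in ahES and 10.61, 10.44 and 10.37 in round sperm (2.46 ± 0.06), and Ccna2, the A-type cyclin, read 11.63, 11.92 and 12.03 in ahES and 9.15, 9.19 and 8.85 in round sperm (2.82 ± 0.06). Cks2, which mouse spermatocytes need for meiosis, read 14.10, 14.19 and 14.28 in ahES and 10.99, 11.30 and 11.18 in round sperm (3.03 ± 0.06). Cdc25b was above the 40th percentile on 1 round sperm array, where its mean was near background, so that only a bound holds: its mean was 8.12 in ahES and 5.13 in round sperm, and it was at least 5.77-fold higher in ahES.

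Wee1 depended on its probe set. The probe set used read 11.08, 11.17 and 11.40 in ahES and 8.65, 8.43 and 8.45 in round sperm and gave 2.69 ± 0.07, while the other one had a mean of 8.53 in ahES and 11.54 in round sperm, a difference of -3.004. Both were above the 40th percentile on all ES and round sperm arrays, and both were higher in ahES than in MEF, by 1.91 and 1.61. Kif2c behaved alike and is given with the motors. Over the mitotic genes, 31 further probe sets were above the percentile on all 15 ES arrays; 29 had the sign of the one used in ahES minus diploid ES, 30 in ahES minus MEF and 25 in ahES minus round sperm. With the mean over both, Wee1 was at -0.16. Which reading of Wee1 holds was not tested.

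Of the mitotic kinases, Aurka and Plk1 were higher in round sperm. Aurka read 11.52, 11.73 and 11.83 in ahES and 13.33, 13.20 and 13.45 in round sperm, a 3.04-fold lower level in ahES (-1.61 ± 0.08); its second, dim probe set gave 3.10 and was above the percentile on 0 round sperm arrays, and the mean over both turned the sign, to 0.75. Plk1 read 10.68, 10.82 and 11.23 in ahES and 12.25, 12.13 and 12.19 in round sperm (-1.29 ± 0.07). The passenger complex went the other way. Cdca8 was called higher in ahES, with 12.44, 12.56 and 12.62 in ahES and 11.29, 11.16 and 10.94 in round sperm (1.40 ± 0.06). Aurkb read 9.10, 9.50 and 9.98 in ahES and 8.58, 8.63 and 8.71 in round sperm and Birc5 12.54, 12.61 and 12.70 in ahES and 12.02, 12.06 and 11.77 in round sperm, and they were short of 2-fold (0.87 ± 0.07 and 0.67 ± 0.06). The other probe set of Aurkb gave 1.92, and with the mean over both Aurkb passed 2-fold (1.39).

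The checkpoint and APC/C genes also went both ways, with 2 called higher, 1 lower and 4 not called. Mad2l1, the checkpoint protein that binds Cdc20, read 12.09, 12.49 and 12.65 in ahES and 6.29, 7.07 and 6.86 in round sperm, 51.7-fold higher in ahES (5.69 ± 0.10). Ube2c read 13.50, 13.75 and 13.90 in ahES and 11.35, 11.52 and 11.50 in round sperm (2.28 ± 0.05). Cdca3 was called lower in ahES, with 12.21, 12.28 and 12.33 in ahES and 13.67, 13.68 and 13.68 in round sperm (-1.40 ± 0.05), and its 3 round sperm arrays were nearly equal. The other 4 were not called by the probe sets used. Bub1 read 12.15, 12.39 and 12.58 in ahES and 12.59, 12.17 and 12.11 in round sperm, Ttk 11.03, 11.28 and 11.50 in ahES and 11.48, 11.45 and 11.24 in round sperm and Cdc20 13.47, 13.80 and 13.95 in ahES and 13.82, 13.43 and 13.57 in round sperm, all overlapping, with differences of 0.07 ± 0.07, -0.11 ± 0.07 and 0.11 ± 0.06 and adjusted p of 0.328, 0.109 and 0.099. With median-centred arrays the signs of Bub1 and Cdc20 turned, to -0.07 and -0.03. With the mean over its probe sets, Ttk was at 1.32 (adjusted p = 1.46e-08). The other probe set of Ttk gave 2.75 and was above the percentile on 1 round sperm array, and that of Bub1 gave 1.58 and was above it on 14 ES and 2 round sperm arrays. Bub1b read 11.04, 11.32 and 11.62 in ahES and 10.79, 10.76 and 10.72 in round sperm, short of 2-fold (0.56 ± 0.06).

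At the centromere the genes again parted. Cenpa read 12.06, 12.41 and 12.56 in ahES and 4.81, 6.02 and 6.04 in round sperm, where 2 of 3 arrays were above the 40th percentile. Its fitted difference was 6.75 ± 0.16, and 6.34 to 6.96 with single arrays left out. With the low array set to the percentile, it was at least 89.9-fold higher in ahES. Nuf2 had the largest difference in the other direction, with 8.52, 9.11 and 9.36 in ahES and 11.27, 10.85 and 10.91 in round sperm (-2.02 ± 0.12, 4.06-fold lower). Its partner Ndc80 was called higher in ahES, with 9.57, 10.10 and 10.23 in ahES and 8.52, 8.75 and 8.43 in round sperm (1.41 ± 0.08). Those 2 subunits of 1 complex thus differed in direction. The kinetochore proteins Cenpe and Cenpf were lower in ahES but short of 2-fold: Cenpe read 10.43, 10.84 and 10.99 in ahES and 11.72, 11.31 and 11.43 in round sperm (-0.68 ± 0.09), and Cenpf 10.99, 11.15 and 11.41 in ahES and 12.12, 11.84 and 11.57 in round sperm (-0.66 ± 0.07). Of the 18 other centromere genes, 11 (61.1%) were higher and 3 (16.7%) lower, where 40.8% and 32.2% of all genes were. Of 19 others of the checkpoint and outer kinetochore 17 (89.5%) were higher and 0 lower, with Zwint at 3.07 ± 0.07.

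**Figure D5:**
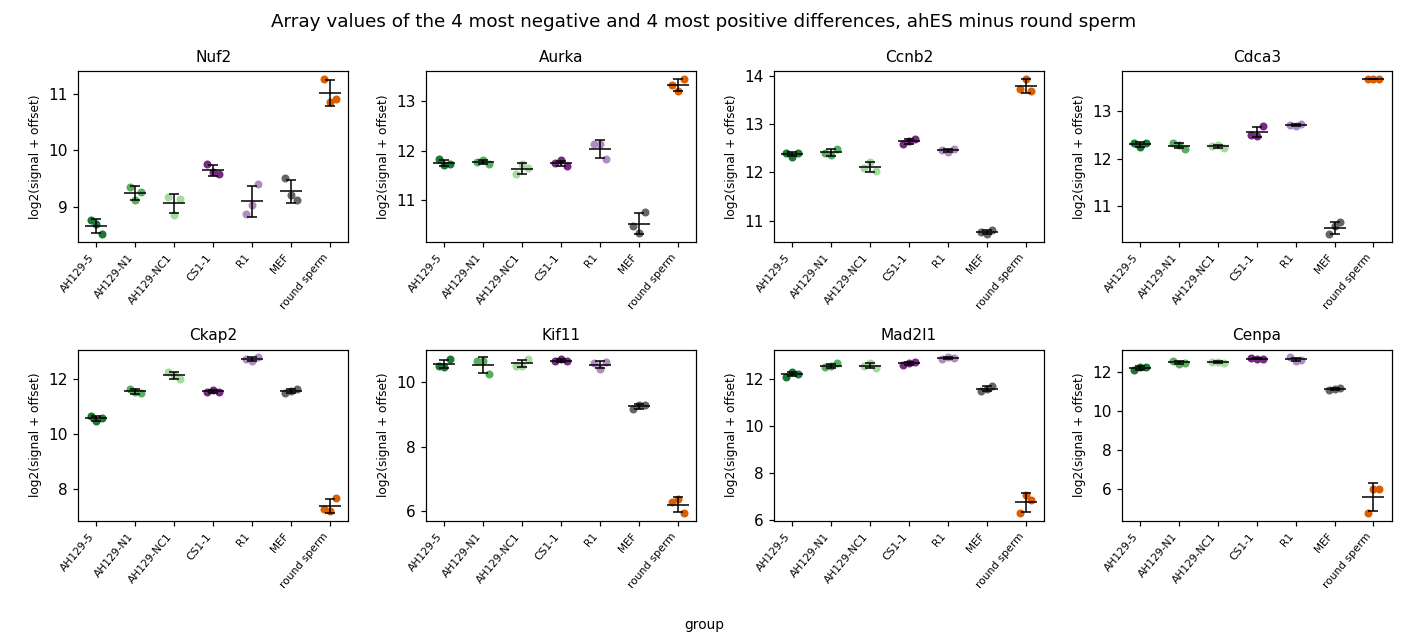
Array values, log2(signal + offset), in the 7 groups for the 4 most negative (top) and 4 most positive (bottom) differences, ahES minus round sperm; points are arrays, bars the mean ± SD of 3. Nuf2, Aurka, Ccnb2 and Cdca3 peak in round sperm, while Ckap2, Kif11, Mad2l1 and Cenpa drop to 7.39, 6.19, 6.74 and 5.62 there.

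Of the 7 spindle motors and microtubule proteins, 6 were called higher in ahES and 0 lower by the probe sets used. Kif2c and Tpx2, both among the 6, depended on the probe set. Kif11, the motor that pushes the poles apart, read 10.25, 10.53 and 10.73 in ahES and 6.26, 6.37 and 5.93 in round sperm, 20.8-fold higher (4.38 ± 0.10). Ckap2 read 10.49, 11.52 and 12.26 in ahES and 7.28, 7.21 and 7.68 in round sperm, 16.4-fold higher (4.03 ± 0.08). Kif4 read 10.27, 10.50 and 10.72 in ahES and 7.59, 7.09 and 7.54 in round sperm (3.11 ± 0.10). All 3 were low in round sperm on every array. Hmmr, a spindle protein that binds microtubules, read 11.44, 11.65 and 11.70 in ahES and 8.68, 8.65 and 8.13 in round sperm (3.11 ± 0.08), and Tpx2, the activator of Aurka, 11.06, 11.24 and 11.58 in ahES and 9.84, 10.20 and 9.71 in round sperm (1.34 ± 0.10). A second probe set of Tpx2 gave 3.99. A further pair, with means of 6.30 and 6.24 in ahES, gave -1.11 and -1.59. Each of this pair was above the percentile on 14 ES and 3 round sperm arrays. With the mean over its probe sets Tpx2 was short of 2-fold, at 0.66. Nusap1 read 11.88, 12.02 and 12.15 in ahES and 11.92, 11.67 and 11.63 in round sperm and was not called (0.28 ± 0.07). The microtubule depolymerase Kif2c read 10.91, 10.996 and 11.34 in ahES and 8.73, 8.40 and 8.23 in round sperm by the probe set used (2.63 ± 0.07), which may cross-hybridise by its suffix. Another pair of its probe sets, above the percentile on every ES and round sperm array, gave -2.32 and -2.36, so the direction of Kif2c is uncertain, and without probe sets of that suffix Kif2c was called lower, which leaves 5 higher and 1 lower. Of 25 other motors and microtubule factors, 11 (44%) were higher and 6 (24%) lower, near the 40.8% and 32.2% of all genes.

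Chromosome structure and cytokinesis closed the list without a gene called lower. Top2a read 13.01, 13.26 and 13.51 in ahES and 12.08, 12.06 and 12.06 in round sperm (1.19 ± 0.05), while Ncapd2 read 10.11, 10.42 and 10.84 in ahES and 10.70, 10.46 and 10.54 in round sperm, with overlap (-0.13 ± 0.07, adjusted p = 0.0842). The other probe set of Ncapd2, above the percentile on 15 ES and 3 round sperm arrays, gave 1.03, of the opposite sign. With the mean over both, Ncapd2 was at 0.45. Anln, the scaffold of the contractile ring, read 12.72, 12.84 and 13.23 in ahES and 9.56, 9.29 and 8.88 in round sperm, 12.5-fold higher in ahES (3.64 ± 0.09). Ect2 read 11.39, 11.69 and 11.78 in ahES and 10.50, 9.20 and 9.68 in round sperm (1.87 ± 0.16), and its round sperm arrays were spread widely. Kif20b read 11.61, 11.95 and 12.04 in ahES and 10.81, 10.72 and 10.49 in round sperm (1.18 ± 0.09). The other 3 were higher by less than 2-fold. Kif23 read 10.49, 10.75 and 10.85 in ahES and 9.85, 9.85 and 9.69 in round sperm, Kif20a 11.49, 11.83 and 11.91 in ahES and 11.20, 10.94 and 10.78 in round sperm and Prc1 10.79, 11.12 and 11.17 in ahES and 10.62, 10.54 and 10.44 in round sperm, with differences of 0.92 ± 0.06, 0.75 ± 0.07 and 0.51 ± 0.05. In each of the 3 the ahES arrays lay above all round sperm arrays.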

How the data were processed

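RNA of 21 samples (7 groups of 3) was measured on 1-colour Affymetrix arrays. The deposited values are log2 MAS5 signals per the submitters' processing notes; that they are on a log2 scale was read from the deposited values, which run from 0 to 15.66 over 45101 probe sets, and the software version is not given in the sources used here. MAS5 scales each array as a whole, so a difference is relative to the rest of the array. No count or depth exists for arrays.

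Values were returned to signal and taken as log2(signal + 9.70), the offset being the 20th percentile of an array, as the median of the 21 arrays. Control probe sets (64) were left out. Of the rest, 34945 had 1 gene symbol, 932 several and 9160 none; several and none were left out, and 34741 were matched to RefSeq (GRCm38.p6) by Entrez ID. The probe set with the highest overall mean stood for each of 18193 genes. Genes entered a test if every array of at least 1 compared group exceeded the 40th percentile of their array. Tests were 2-sided and used limma 3.58.1 in R 4.3.3, with statmod 1.5.0, eBayes with trend and robust settings, and Benjamini-Hochberg adjustment over all genes tested. For ahES against diploid ES, 15 arrays were fitted with line as a random block. Comparisons with MEF and round sperm used group means over all 21 arrays, and CS1-1 against R1 used the 15 ES arrays. On simulated data the block fit made too many calls when the line variance differed between genes, since it assumes 1 correlation.

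Array values were given for the 4 largest differences in each direction per comparison, for genes above the 40th percentile on all round sperm arrays and for genes called between CS1-1 and R1. For other pathway genes, counts and up to 2 called genes of smallest adjusted p per list were used. The genes, lists and rules were chosen with earlier results of these data known. Same-numbered arrays of different groups did not deviate together (63 pairs, r from -0.06 to 0.05), so the numbers were not taken as pairs. Within groups, arrays correlated at 0.966 to 0.983, and no array was a copy of another. Alternatives covered the offset, filter, probe set choice, scaling, eBayes setting, replicate block, line block, and leaving out each line and array.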

Additional observations from a re-analysis of the deposited data

Results flagged for a closer look

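In 2 of 78 sets of arrays checked (the 39 genes in the 9 ahES and in the 6 diploid ES arrays), 1 array stood apart from the others by Dixon's criterion, which chance exceeds in about 1 set in 20. Kif11, the spindle motor, read 10.43 in R1 replicate 2, against 10.61 in the nearest other diploid ES array, a gap of 0.625 of the whole range. Birc5, the survivin subunit of the passenger complex, read 12.77 in R1 replicate 3, against 12.65 in the nearest array, a gap of 0.814 of the range. Neither gene differed between ahES and diploid ES at an adjusted p under 0.05.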

How the results depend on the processing

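The counts of called mitotic genes stayed within 1.5 times under the alternatives run, with the exceptions given here; the cause of a change was not tested, beyond fewer lines or arrays where these were left out. In ahES minus diploid ES, the genes lower at an adjusted p under 0.05 numbered 7, but 3 with the mean over probe sets and 3 without CS1-1; 2 were higher without R1, and 1 was called lower without AH129-NC1. With 1 mean per line 0 were higher and 0 lower and 284 genes were called over the array, and without the line block 4 were higher, 24 lower and 1030 called. Without R1, 1098 genes were called, and the median over the mitotic genes was -0.14. That median was 0.84 (mean over probe sets), 1.00 (quantile), 0.97 (without AH129-5), 0.83 (without AH129-N1) and 1.01 (without AH129-NC1) in ahES minus MEF. In ahES minus round sperm it was 0.82 (mean over probe sets), 1.05 (no probe sets of possible cross-hybridisation), 1.04 (median-centred), 0.91 (quantile) and 1.10 (without AH129-N1), and 1.09 to 1.20 with single arrays left out. In diploid ES minus MEF it was 0.99 (mean over probe sets), 1.07 (no probe sets of possible cross-hybridisation), 1.23 (without CS1-1) and 1.07 (without R1). In CS1-1 minus R1, 702 genes were called with an offset of 50 signal units against 1194, 1 mitotic gene was called higher with the mean over probe sets, the genes lower at an adjusted p under 0.05 numbered 6 with median-centred arrays against 13, and the median was 0.040 with median-centred arrays.

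With the mean over all probe sets of a gene, signs turned for Cdca3 0.031 in ahES minus diploid ES, for Aurkb 0.14 and Cenpa -0.58 in ahES minus MEF, for Aurka 0.75, Ttk 1.32, Kif2c -0.43, Ncapd2 0.45 and Wee1 -0.16 in ahES minus round sperm, for Ccna2 0.050, Ttk -0.45, Top2a -0.059, Kif11 -0.024, Cenpe 0.025, Cenpf -0.071, Tpx2 0.20, Anln 0.032, Hmmr -0.19, Cdc25c 0.075, Cdca8 -0.14 and Wee1 -0.0027 in CS1-1 minus R1. Without the probe sets whose suffix marks possible cross-hybridisation, signs turned for Kif2c -2.32 in ahES minus round sperm, for Kif2c 0.019, Cdc25c 0.19 and Cdca8 -0.24 in CS1-1 minus R1. With arrays centred on their median, signs turned for Cdc20 -0.030 and Bub1 -0.069 in ahES minus round sperm, for Cdk1 0.040, Kif2c 0.062, Cenpe 0.0085, Birc5 0.011 and Cdc25c 0.025 in CS1-1 minus R1. After quantile normalization, signs turned for Kif2c 0.0072, Cdca8 -0.0043 and Ndc80 -0.011 in CS1-1 minus R1. Without the line AH129-5, signs turned for Kif20b 0.083 and Ndc80 -0.035 in ahES minus diploid ES, for Aurkb 0.034 and Ckap2 0.29 in ahES minus MEF. Without the line AH129-N1, signs turned for Cdk1 -0.017, Ndc80 -0.021 and Wee1 -0.0092 in ahES minus diploid ES, for Bub1 -0.0087 in ahES minus round sperm. Without the line CS1-1, signs turned for Kif11 0.0096 and Ube2c -0.034 in ahES minus diploid ES, for Nuf2 -0.18 in diploid ES minus MEF. Without the line R1, signs turned for Plk1 0.084, Kif20b 0.040, Cdc25b 0.010 and Cks2 0.047 in ahES minus diploid ES. With single arrays left out, signs turned within these ranges: Kif20b (-0.021 to 0.032) in ahES minus diploid ES, then Bub1 (-0.018 to 0.22) in ahES minus round sperm, then Cdc25c (-0.074 to 0.0050), Cdca8 (-0.025 to 0.020), Cdk1 (-0.057 to 0.022), Cenpa (-0.0031 to 0.088), Hmmr (-0.012 to 0.060), Kif2c (-0.024 to 0.028), Ndc80 (-0.033 to 0.12), Ttk (-0.044 to 0.059), Wee1 (-0.012 to 0.054) in CS1-1 minus R1. Nearly all of these were small differences that were not called in the first place; the called genes among them were Cenpa against MEF and Aurka, Kif2c and Wee1 against round sperm.

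Over single genes and settings, calls were lost without a change of sign 8 times in ahES minus MEF, 3 times in ahES minus round sperm and 15 times in diploid ES minus MEF, and gained 10, 3 and 3 times there and 1 time each in the other comparisons.

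With the replicate number as a block, the mitotic genes called stayed at 0 higher and 0 lower in ahES minus diploid ES, 17 and 0 in ahES minus MEF, 20 and 6 in ahES minus round sperm, 23 and 0 in diploid ES minus MEF, and 0 and 1 in CS1-1 minus R1; genes called over the array were 524, 5570, 10776, 5816 and 1198.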

Other observations

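Some relatives of the mitotic genes, and some other cell cycle genes, differed widely between kinds of cell. Kif2b, a relative of Kif2c, had a mean of 3.61 in ahES, below the 40th percentile of the arrays, and of 14.001 in round sperm. Aurkc, the Aurora kinase of meiosis, had a mean of 10.75 in ahES, against 3.95 in MEF, where it was below that percentile. Cks1b, the relative of Cks2, was higher in ahES than in round sperm, with means of 13.64 and 7.96 (a log2 difference of 5.68 ± 0.05, SE). Cdkn3, a phosphatase of Cdk2, and Cep63, a centrosome protein, were lower in ahES than in round sperm: Cdkn3 averaged 9.17 in ahES and 13.82 in round sperm, and Cep63 9.26 in ahES and 13.62 in round sperm. Of 12 relatives known from germ cells or paralogous to the mitotic genes that were tested against round sperm, 5 (41.7%) were called higher and 5 (41.7%) lower in ahES. Of all genes tested there, 40.8% were called higher and 32.2% lower.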
